A study of Mus musculus with 18 samples.

Results

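The genes followed here were present at different levels in the E0771 lines, and most of them encode proteins that carry signals from antigen and Fc receptors in blood cells. They are Syk, Lcp2, Shc4, Sla, Vav1, Rac3, Plcg2, Prkcb and Nfatc2, which make up 9 of the 50686 genes listed in the count files, matched by Ensembl identifier to a GENCODE symbol, and all 9 passed the filter on low counts that left 12772 genes to test. The genes were selected on their values in these libraries, as signaling genes that differ between the lines, so every difference between lines given for them is a description without a test. Only the comparisons with the inhibitor within a line, which were not the rule of the selection, carry p-values for these genes. They use the same libraries as the selection, so they are not fully independent of it.

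E0771 is a murine triple-negative breast cancer (TNBC) cell line. All groups carried a lentiviral CMV-Firefly luciferase construct and were selected with puromycin, then received a retroviral LENC vector with an shRNA and mCherry, and were sorted on mCherry. The cntrl line holds the hairpin against Renilla luciferase, and the shCdk8-1 and shCdk8-2 lines hold 2 different hairpins against Cdk8, a kinase of the Mediator complex. Each line is 1 transduced population, so the effect of a hairpin and other properties of a line cannot be told apart. For 48 h each of these lines received DMSO or Senexin B (SnxB) at 1 µM, an inhibitor of CDK8 and CDK19, with 3 libraries for each of the 6 groups. The libraries held 16452260 to 22664693 counts, and 3 counts in a library, the level below which a gene was read as not detected, correspond to 0.132 to 0.182 CPM, the count scaled to the library size. In cntrl, shCdk8-1 and shCdk8-2 cells in DMSO, Cdk8 was at 56.1 ± 2.13, 21.4 ± 2.44 and 38.9 ± 0.376 CPM (SD, n = 3 libraries). Its log2 fold change in DMSO was -1.38 in shCdk8-1 (SE 0.0748, adjusted p = 2.58e-12) and -0.53 in shCdk8-2 cells (SE 0.0699, adjusted p = 1.92e-06, both from edgeR's quasi-likelihood test).

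In lymphocytes, mast cells and macrophages, an engaged receptor is phosphorylated and recruits the tyrosine kinase Syk or its relative Zap70. These phosphorylate adaptors such as Lcp2 (SLP-76), on which the exchange factor Vav1 and the phospholipases Plcg1 or Plcg2 assemble. Vav proteins activate Rac GTPases, while the phospholipases produce diacylglycerol, which activates protein kinase C, and release calcium, which drives NFAT factors into the nucleus. Several of these proteins are known mainly from blood cells, but not all are restricted to them, and Rac3, Shc4 and Nfatc2 are among those also found elsewhere.

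The DNA before the start of 4 of the genes is shown to set side by side the genes with the widest contrast in each direction, Vav1 (higher in cntrl) and Syk (higher in both shCdk8 lines), each with a partner from the cascade that differed the same way, Lcp2 and Plcg2. Each stretch is the 150 bases before a RefSeq transcription start on the GRCm38.p6 build, read in the direction of the gene, with the PU.1 box GAGGAA and the GC box GGGCGG in capitals on either strand. For Syk, the second of 2 starts is printed because it holds the PU.1 box, while the window of the first start (72.0% GC) holds none of the 5 motifs searched.
Vav1 (chr17:57278950-57279099, plus strand): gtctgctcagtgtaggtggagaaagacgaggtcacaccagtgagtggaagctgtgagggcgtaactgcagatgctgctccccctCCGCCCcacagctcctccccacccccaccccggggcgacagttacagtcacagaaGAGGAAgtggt
Lcp2 (chr11:34046778-34046927, plus strand): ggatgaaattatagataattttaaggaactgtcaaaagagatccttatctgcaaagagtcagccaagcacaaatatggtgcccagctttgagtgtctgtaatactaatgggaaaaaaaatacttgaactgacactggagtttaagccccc
Syk (chr13:52596732-52596881, plus strand): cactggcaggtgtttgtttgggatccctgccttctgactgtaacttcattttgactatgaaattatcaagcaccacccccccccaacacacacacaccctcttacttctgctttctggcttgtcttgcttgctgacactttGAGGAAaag
Plcg2 (chr8:117498125-117498274, plus strand): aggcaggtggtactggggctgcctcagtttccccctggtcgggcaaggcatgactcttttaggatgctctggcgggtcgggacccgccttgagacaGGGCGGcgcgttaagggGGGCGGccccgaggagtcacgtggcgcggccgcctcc

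The PU.1 box, bound by a factor of myeloid and B cells, lay 11 bases before the start of Vav1 and 9 bases before the second start of Syk, and was not in the window of the first start of Syk. RefSeq promoter entries, from 250 bases before to 50 after a start, were found for 8 of the 9 genes, with 10 windows in all (Sla was not matched). The PU.1 box stood in 4 of the 10 windows, which were 1 of the 2 of Syk, 1 of the 2 of Nfatc2, that of Lcp2 (after the start, outside the bases printed) and that of Vav1, and in 28.3% of all 32851 windows. The GC box stood in 6 of the 10 windows against 35.7% of all, the NFAT core GGAAAA in 2 against 23.4%, the TATA box TATAAA in 1 against 13.6% and the RUNX core TGTGGT in 0 against 16.8%. In the Syk window the NFAT core overlaps the PU.1 box. These matches on both strands are a description of the letters, and binding was not measured.

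Across the 4 comparisons of an shCdk8 line with cntrl, the genes fell into 2 groups by direction. Syk, Rac3, Plcg2 and Nfatc2 were higher in both shCdk8 lines in both media, while Vav1, Lcp2, Prkcb and Sla were lower in both lines in both media. Shc4 was lower in DMSO only. In DMSO, 4 of the 9 genes were higher and 5 lower in shCdk8-1 with no overlap between the 3 libraries of each group, and the share of all 12772 genes with such a separation was 32.7% higher and 32.1% lower. For shCdk8-2 in DMSO the counts were again 4 and 5, beside 33.2% and 31.8% of all genes. In SnxB, 4 were higher and 4 lower in shCdk8-1 (30.4% and 30.6% of all genes), and 4 were higher and 4 lower in shCdk8-2 (31.0% and 30.8% of all genes). Since these differences chose the genes, nothing is read from the counts.

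**Figure D1:**
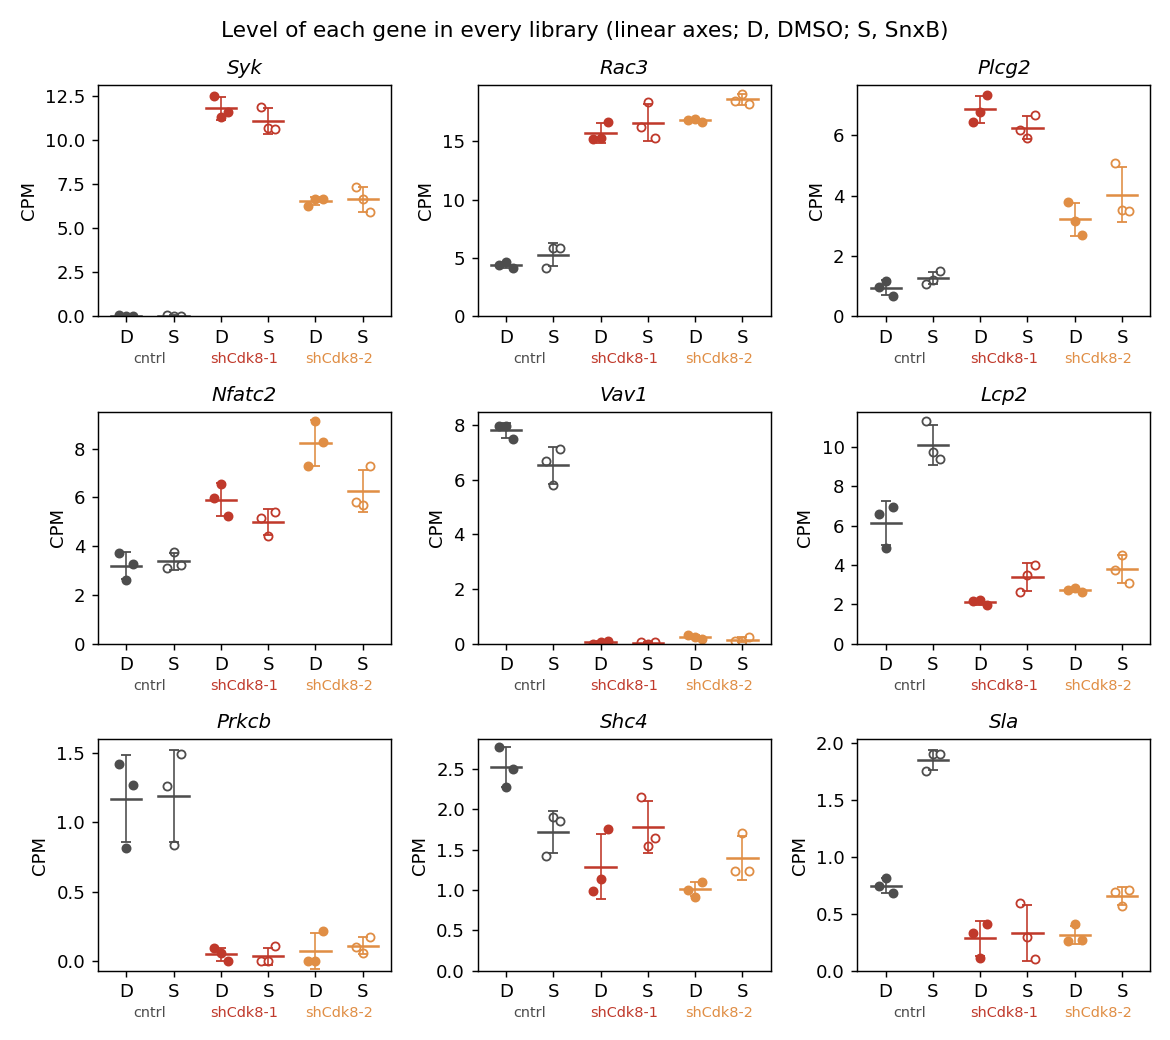
Level of each gene in CPM (linear axes) in the 3 libraries of the 6 groups, filled points for DMSO and open points for SnxB, with the mean as a line and the SD (n = 3) as a bar. Syk sits at 0 to 0.0616 CPM in all 6 cntrl libraries and Vav1 at 0 to 0.305 CPM in all 12 shCdk8 libraries, while Shc4 lies higher in cntrl than in both shCdk8 lines in DMSO and overlaps with them in SnxB.

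Among the genes higher in the knockdown lines, Syk (ENSMUSG00000021457.14, GRCm38 chromosome 13, 52583173 to 52648792, plus strand) encodes the kinase at the head of the cascade. In DMSO its counts were 1, 1 and 0 in cntrl, 266, 198 and 224 in shCdk8-1, and 144, 130 and 122 in shCdk8-2 cells. In SnxB they were 1, 1 and 1 in cntrl, 222, 180 and 201 in shCdk8-1, and 149, 117 and 100 in shCdk8-2 cells. Every cntrl library was thus below the detection level and every shCdk8 library far above it. From the summed counts in DMSO, the ratio to cntrl was 326 in shCdk8-1 (exact 95% counting interval 89.8 to 2690) and 179 in shCdk8-2 cells (49.3 to 1490), intervals that cover counting error only. Between the shCdk8 lines Syk was lower in shCdk8-2, at 6.53 ± 0.228 against 11.8 ± 0.636 CPM in DMSO, with no overlap (log2 fold change -0.86, SE 0.0911).

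Rac3 (ENSMUSG00000018012.11, chromosome 11, 120721470 to 120723969, plus strand), a Rac GTPase best known from the nervous system, had the highest level per length of the 9 genes in each of the 3 lines. Its level in DMSO was 4.44, 4.66 and 4.16 CPM in cntrl, 15.2, 15.3 and 16.7 CPM in shCdk8-1, and 16.8, 16.9 and 16.7 CPM in shCdk8-2 cells. With SnxB it was 4.15, 5.89 and 5.84 CPM in cntrl, 16.2, 18.4 and 15.3 CPM in shCdk8-1, and 18.5, 19.1 and 18.2 CPM in shCdk8-2 cells. All 12 shCdk8 libraries lay above all 6 cntrl libraries, by 3.56-fold in shCdk8-1 (log2 fold change 1.83, SE 0.106) and 3.8-fold in shCdk8-2 cells in DMSO (1.93, SE 0.105).

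Plcg2 (ENSMUSG00000034330.10, chromosome 8, 117498291 to 117635142, plus strand) encodes the phospholipase C of B cells, NK cells and platelets. In DMSO it was at 0.986, 1.19 and 0.686 CPM in cntrl, 6.44, 6.78 and 7.33 CPM in shCdk8-1, and 3.79, 3.17 and 2.68 CPM in shCdk8-2 cells. In SnxB the values were 1.09, 1.21 and 1.49 CPM in cntrl, 6.18, 5.89 and 6.67 CPM in shCdk8-1, and 5.08, 3.53 and 3.49 CPM in shCdk8-2 cells. The 3 lines did not overlap in either medium, and shCdk8-2 stood between the others. The log2 fold change against cntrl in DMSO was 2.85 in shCdk8-1 (SE 0.194) and 1.77 in shCdk8-2 cells (SE 0.221).

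Nfatc2 (ENSMUSG00000027544.16, chromosome 2, 168476410 to 168601657, minus strand) encodes the calcium-responsive factor NFAT1. Its level in DMSO was 3.7, 2.6 and 3.28 CPM in cntrl, 5.97, 6.55 and 5.22 CPM in shCdk8-1, and 7.27, 9.14 and 8.27 CPM in shCdk8-2 cells. In SnxB it was 3.12, 3.76 and 3.23 CPM in cntrl, 5.16, 4.4 and 5.4 CPM in shCdk8-1, and 5.81, 5.69 and 7.27 CPM in shCdk8-2 cells. Here shCdk8-2 was the highest line, the reverse of Syk and Plcg2, and none of the lines overlapped within a medium. Its log2 fold changes against cntrl in DMSO, 0.89 in shCdk8-1 (SE 0.15) and 1.36 in shCdk8-2 cells (SE 0.141), were the smallest of the 4 genes.

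Of the genes lower in the knockdown lines, Vav1 (ENSMUSG00000034116.17, chromosome 17, 57279100 to 57328031, plus strand), the exchange factor of blood cells, differed the most. In DMSO its counts were 129, 147 and 153 in cntrl, 0, 1 and 2 in shCdk8-1, and 7, 5 and 3 in shCdk8-2 cells. In SnxB they were 122, 125 and 139 in cntrl, 1, 0 and 1 in shCdk8-1, and 2, 2 and 4 in shCdk8-2 cells. No shCdk8-1 library passed the detection level, and 3 of the 6 shCdk8-2 libraries had more than 3 counts. The ratio of cntrl to shCdk8-1 in DMSO was 151 from summed counts (exact 95% counting interval 51.3 to 735), and the fitted fold of cntrl over shCdk8-2 was 30.8 (log2 fold change -4.95, SE 0.221).

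Lcp2 (ENSMUSG00000002699.13, chromosome 11, 34046920 to 34092295, plus strand) encodes SLP-76, the scaffold that binds Vav1. Its level in DMSO was 6.59, 4.88 and 6.96 CPM in cntrl, 2.16, 2.22 and 1.96 CPM in shCdk8-1, and 2.74, 2.81 and 2.63 CPM in shCdk8-2 cells. In SnxB it was 11.3, 9.74 and 9.38 CPM in cntrl, 2.64, 3.51 and 4.02 CPM in shCdk8-1, and 3.75, 4.5 and 3.07 CPM in shCdk8-2 cells. Lcp2 remained detected in every library, and all shCdk8 libraries lay below all cntrl libraries. The log2 fold change in DMSO was -1.54 in shCdk8-1 (SE 0.173) and -1.17 in shCdk8-2 cells (SE 0.163).

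Prkcb (ENSMUSG00000052889.11, chromosome 7, 122288751 to 122634402, plus strand) encodes protein kinase C beta, which in B cells links diacylglycerol to NF-kappaB. In DMSO it had 23, 15 and 26 counts in cntrl, 2, 1 and 0 in shCdk8-1, and 0, 0 and 4 in shCdk8-2 cells. In SnxB it had 23, 18 and 29 counts in cntrl, 0, 0 and 2 in shCdk8-1, and 2, 1 and 3 in shCdk8-2 cells. Of the 12 shCdk8 libraries 11 were at or below the detection level. The ratio of cntrl to shCdk8-1 in DMSO was 22.5 (exact 95% counting interval 7.37 to 112), at a level of only 1.17 ± 0.315 CPM in cntrl.

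Sla (ENSMUSG00000022372.14, chromosome 15, 66780819 to 66831829, minus strand) encodes the adaptor SLAP, which dampens receptor signaling. Its counts in DMSO were 12, 15 and 14 in cntrl, 7, 2 and 8 in shCdk8-1, and 6, 8 and 5 in shCdk8-2 cells. In SnxB they were 32, 41 and 37 in cntrl, 11, 5 and 2 in shCdk8-1, and 14, 10 and 12 in shCdk8-2 cells. The cntrl libraries lay above both shCdk8 lines in each medium, at counts that leave wide errors, as in the log2 fold change of -1.33 in shCdk8-1 in DMSO (SE 0.4). Sla lies within the thyroglobulin gene Tg on the opposite strand, with 0 exon bases shared.

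Shc4 (ENSMUSG00000035109.14, chromosome 2, 125627447 to 125724148, minus strand) encodes an adaptor of the Shc family. In DMSO it was at 2.77, 2.28 and 2.5 CPM in cntrl, 0.987, 1.14 and 1.76 CPM in shCdk8-1, and 1.0, 0.919 and 1.1 CPM in shCdk8-2 cells. In SnxB the values were 1.42, 1.9 and 1.85 CPM in cntrl, 2.15, 1.55 and 1.64 CPM in shCdk8-1, and 1.23, 1.71 and 1.24 CPM in shCdk8-2 cells. Both shCdk8 lines separated from cntrl in DMSO, where they overlapped with each other, and both overlapped with cntrl in SnxB, where the log2 fold change was 0.04 in shCdk8-1 (95% interval -0.4 to 0.48) and -0.32 in shCdk8-2 cells (-0.78 to 0.14). Shc4 shares 527 exon bases with Eid1 on the opposite strand, whose mean count was 2299.5 against 30.56 for Shc4, and the counting was set to use strand. Eid1 had a log2 fold change of -0.18 in shCdk8-1 (adjusted p = 0.00075) and -0.08 in shCdk8-2 cells in DMSO (adjusted p = 0.113, edgeR), and a part of its reads in the Shc4 values was not tested.

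SnxB was compared with DMSO within each line, a comparison that asks whether inhibition of the kinase moves the genes. It was not the rule that chose them, but it uses libraries that the selection also used. In cntrl cells Lcp2 and Sla rose, 2 of the 9 genes at an adjusted p under 0.05, and no member fell, where 5.54% of all 12772 genes passed. Lcp2 went from 6.14 ± 1.11 to 10.1 ± 0.997 CPM, a 1.64-fold rise (log2 fold change 0.72, SE 0.132, adjusted p = 0.00179). Sla went from 0.746 ± 0.0639 to 1.85 ± 0.0868 CPM, a 2.47-fold rise (log2 fold change 1.31, SE 0.273, adjusted p = 0.00548, both from edgeR's quasi-likelihood test). In both genes all 3 SnxB libraries lay above all 3 DMSO libraries. The rise with SnxB is opposite in direction to the lower level in the shCdk8 lines, a comparison that shares its DMSO control libraries with the SnxB comparison.

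The other genes did not pass the test in cntrl cells. Shc4 had a log2 fold change of -0.53 (95% interval -0.94 to -0.12, adjusted p = 0.136, edgeR), with every SnxB library below every DMSO library. Rac3 had 0.27 (95% interval 0.01 to 0.53, adjusted p = 0.253), and passed without cntrl SnxB replicate 1 (0.41, adjusted p = 0.0423, edgeR, within a range of 0.0423 to 0.583 over its alternatives). Vav1 had -0.26 (95% interval -0.51 to 0, adjusted p = 0.273, edgeR). Plcg2, Nfatc2 and Prkcb had log2 fold changes of 0.42, 0.09 and 0.02, with intervals that include 0. Syk was below the detection level in both media, so no fold is given.

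In shCdk8-1 cells 0 of the 9 genes passed, where 1.48% of all genes did, and 0 passed in DESeq2, with 1 at an unadjusted p under 0.05 in each tool. In edgeR that gene was Lcp2, at 2.12 ± 0.136 CPM in DMSO and 3.39 ± 0.7 CPM in SnxB without overlap (log2 fold change 0.68, 95% interval 0.27 to 1.08, adjusted p = 0.0902, edgeR). It passed without shCdk8-1 SnxB replicate 1 (0.84, adjusted p = 0.0234, edgeR), within a range of 0.0095 to 0.342 over its alternatives. In shCdk8-2 cells again 0 of 9 passed, beside 2.05% of all genes, and 0 passed in DESeq2, with 3 at an unadjusted p under 0.05 in each tool. In edgeR these were Nfatc2 (log2 fold change -0.39, 95% interval -0.66 to -0.13, adjusted p = 0.13), Sla (1.06, 0.22 to 1.89, adjusted p = 0.251) and Lcp2 (0.47, 0.09 to 0.84, adjusted p = 0.255), and in each the media did not overlap. Vav1 in shCdk8-1 and Prkcb in shCdk8-1 cells were below the detection level in both media.

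**Figure D2:**
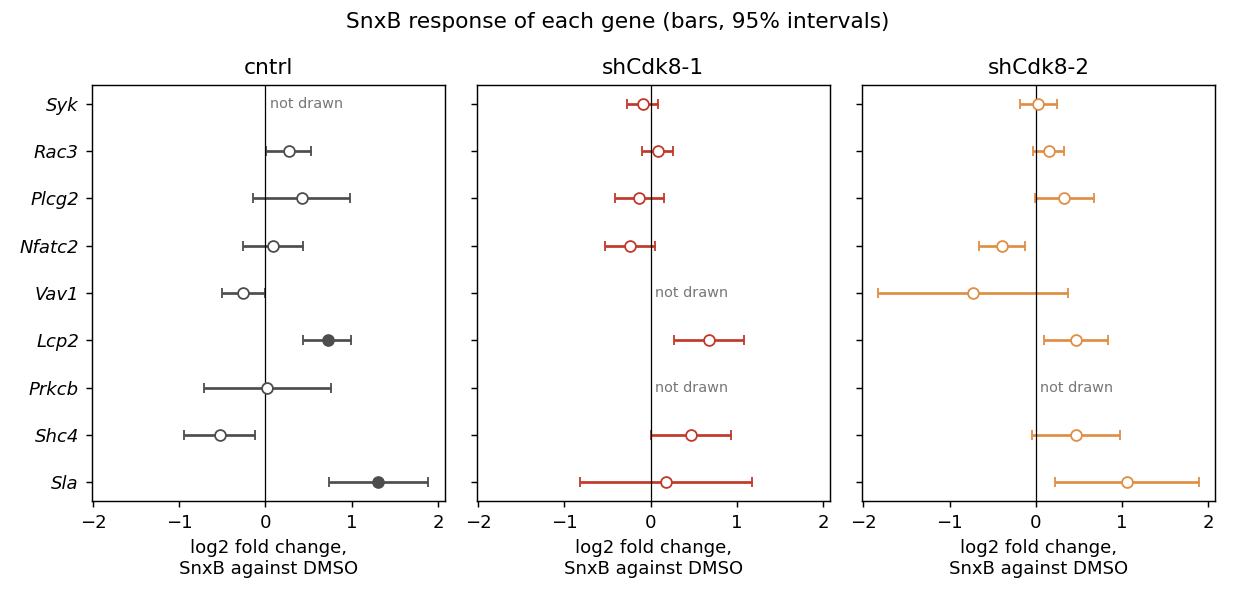
Log2 fold change of SnxB against DMSO for each gene within cntrl, shCdk8-1 and shCdk8-2 cells, with 95% intervals from the edgeR fit of 18 libraries. Filled points passed an adjusted p under 0.05, which were Lcp2 and Sla in cntrl cells, and genes with at most 3 counts in every library of a group are not drawn.

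Whether the response to SnxB differed between lines was tested directly. For shCdk8-1 minus cntrl 0 of 9 genes passed in edgeR (0.305% of all genes) and 0 in DESeq2, with 1 at an unadjusted p under 0.05 in each tool. For shCdk8-2 minus cntrl 0 of 9 passed in edgeR (0.0548% of all genes) and 0 in DESeq2, with 2 and 1 at an unadjusted p under 0.05. The lowest p-values belonged to Shc4, whose response was higher by 1.0 on the log2 scale in shCdk8-1 (95% interval 0.38 to 1.62, adjusted p = 0.27) and by 1.0 in shCdk8-2 (0.34 to 1.65, adjusted p = 0.499, both edgeR). For Lcp2 the difference was -0.04 in shCdk8-1 (95% interval -0.55 to 0.47) and -0.25 in shCdk8-2 (-0.72 to 0.22). For Sla it was -1.13 (-2.31 to 0.06) and -0.25 (-1.34 to 0.84). The intervals of Lcp2 and Sla are wide at these counts and include no difference, a weaker response and a stronger one. For Sla in shCdk8-1 the upper end was only 0.06. The Shc4 intervals, which are not adjusted for the number of genes tested, leave out 0.

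Most of the 9 genes have a close relative, and the relatives were compared on the scale of CPM per kb of exon. Rac1, the ubiquitous Rac, was at 66.3 CPM per kb in cntrl cells in DMSO, against 3.42 ± 0.193 for Rac3, and Rac2 of blood cells was at 0.037. In shCdk8-1 cells Rac1 was at 60.8 and Rac3 at 12.2 ± 0.651 CPM per kb. Vav2, the broadly expressed exchange factor, was at 6.88 CPM per kb in cntrl, 7.47 in shCdk8-1 and 6.55 in shCdk8-2 cells, where Vav1 was at 2.12, 0.0145 and 0.0655. Plcg1 was at 18.8, 16.2 and 16.2 CPM per kb in the 3 lines, and Plcg2 at 0.222, 1.59 and 0.747. Thus a broadly expressed relative was the more abundant one in all 3 lines for Rac3, Vav1 and Plcg2.

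The same held for Prkca (18.4 CPM per kb in cntrl in DMSO) beside Prkcb (0.153), for Shc1 (22) beside Shc4 (0.304), and for Nfatc3 (28.6), Nfat5 (23.6) and Nfatc1 (5.48) beside Nfatc2 (0.302). The relatives of Syk and Lcp2, on the other hand, were near 0, with Zap70 at 0.025, and Blnk and Clnk at 0 CPM per kb in cntrl cells in DMSO. Of the 18 relatives 11 were tested. In shCdk8-1 against cntrl in DMSO 7 were lower and 0 higher at an adjusted p under 0.05, where 29.5% of all genes were lower and 30.1% higher. In shCdk8-2 8 were lower and 0 higher, beside 28.1% and 29.0% of all genes. The median log2 fold change of the relatives was -0.21 in each, beside 0.01 over all genes. Sla2, the relative of Sla, fell in both lines (log2 fold change -1.61 and -2.33 in DMSO, adjusted p = 9.67e-07 and 2.27e-08, edgeR). Sla2 also fell with SnxB in cntrl cells, from 4.22 to 2.74 CPM (-0.64, adjusted p = 0.0418, edgeR), where Sla rose. The fall of Sla2 with SnxB did not pass with DESeq2 (adjusted p = 0.0997), and its adjusted p ranged from 0.00905 to 0.177 over the alternatives.

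**Figure D3:**
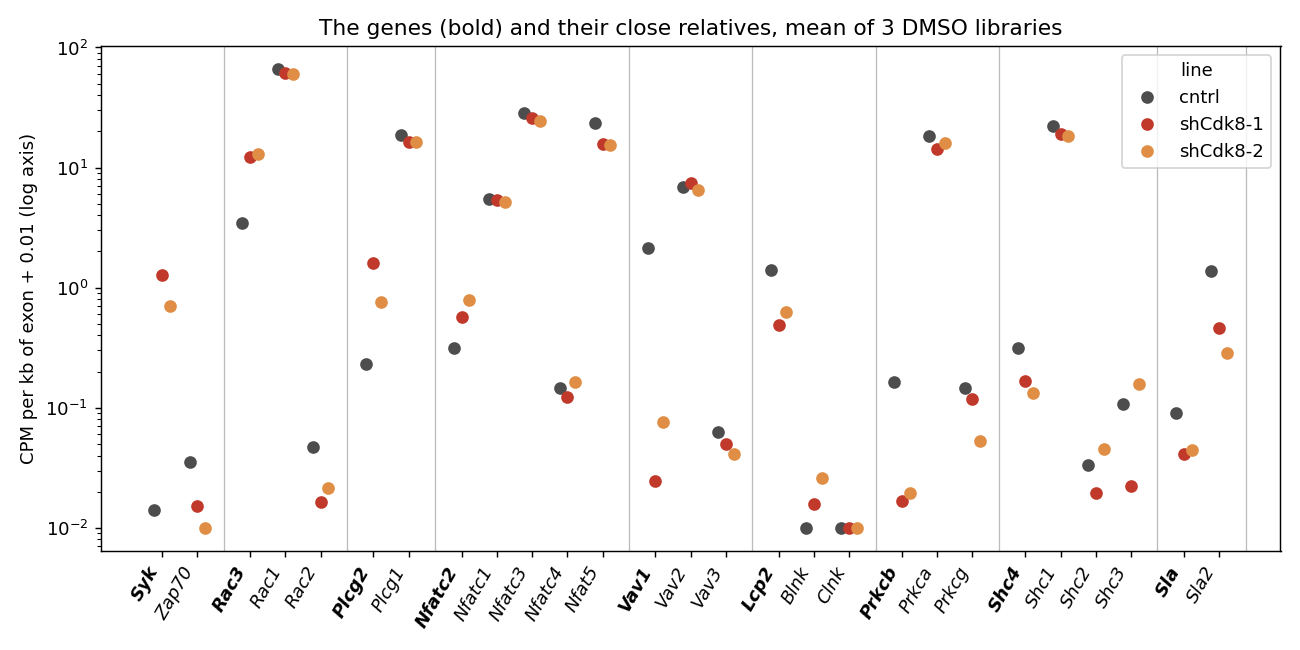
Level per length (CPM per kb of exon, with 0.01 added, log axis) of the 9 genes, in bold, and of their 18 relatives, as means of the 3 DMSO libraries of each line. Rac1, Plcg1, Nfatc3, Vav2, Prkca and Shc1 lie above their selected relative in all 3 lines, while Zap70, Blnk and Clnk lie near 0.

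The other genes of the pathway were taken from a list of 77, of which 53 were tested and some are relatives described above. In shCdk8-1 against cntrl in DMSO 10 of the 53 rose and 27 fell, where 30.1% of all genes rose and 29.5% fell. In shCdk8-2 10 rose and 28 fell, beside 29.0% and 28.1% of all genes. In SnxB 10 rose and 29 fell in shCdk8-1 (30.5% and 30.1% of all genes), and 11 rose and 29 fell in shCdk8-2 (28.1% and 28.6%). The median log2 fold change of the list in DMSO was -0.16 in each shCdk8 line, against 0.01 over all genes.

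By role, none of the 9 receptor chains, such as Cd3e and Cd79b, was expressed highly enough to test. All 14 listed genes of the calcium and NFAT step, which leave out the selected gene Nfatc2, higher in both lines, were tested. Of these 8 fell and 0 rose in shCdk8-1 in DMSO, beside 29.5% and 30.1% of all genes, while 7 fell and 0 rose in shCdk8-2, beside 28.1% and 29.0%. The shifts were small, with a median log2 fold change of -0.22 in shCdk8-1 and -0.2 in shCdk8-2, and 0 of the 14 passed with a fold above 2. Of the 11 listed kinases 7 were tested, and in shCdk8-1 in DMSO 2 rose and 3 fell, beside 30.1% and 29.5% of all genes. In shCdk8-2 3 rose and 2 fell, beside 29.0% and 28.1%. The Src family members Fyn (-0.78) and Lyn (-0.55) fell in shCdk8-1 in DMSO, with adjusted p of 1.03e-11 and 1.97e-08 in edgeR. Lck (0.21, adjusted p = 0.145) and Fgr (0.64, adjusted p = 0.357, both edgeR), of the same family, did not pass there. In shCdk8-2 in DMSO Fyn (-0.6) and Lyn (-0.51) fell as well, and Lck (-0.04) did not pass. Fgr was higher there (1.61, adjusted p = 0.00831) and in shCdk8-1 and shCdk8-2 in SnxB (1.99 and 3.02, adjusted p = 0.0286 and 0.000437, all edgeR). Its mean level in DMSO was 0.162 CPM in cntrl and 0.515 CPM in shCdk8-2 cells. Fyn, Lyn, Lck and Fgr were named after their values were seen.

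In all 4 comparisons with cntrl 2 pathway genes were higher and 5 lower by more than 2-fold, beside 3.63% and 4.63% of all genes. Rasgrp2, a calcium-regulated activator of Rap1 in platelets, rose from 1.17 CPM in cntrl to 24.3 CPM in shCdk8-1 and 23.1 CPM in shCdk8-2 cells in DMSO (log2 fold change 4.38 and 4.3, adjusted p = 9.32e-17 and 2.7e-16, edgeR). Inpp5d, the lipid phosphatase SHIP1 that opposes receptor signals, fell from 115.0 to 13.8 and 24.6 CPM (-3.06 and -2.23, adjusted p = 8.46e-19 and 6.5e-17, edgeR). Dok2, a docking protein that restrains tyrosine kinases, fell from 5.87 to 0.173 and 0.243 CPM. Lat2, a transmembrane adaptor of mast and B cells, fell from 3.62 to 0.375 and 1.13 CPM, with log2 fold changes of -3.25 and -1.69. Sla2, described above, and Ptpn22, at a mean under 1 CPM, were the others of the 5 that were lower.

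**Figure D4:**
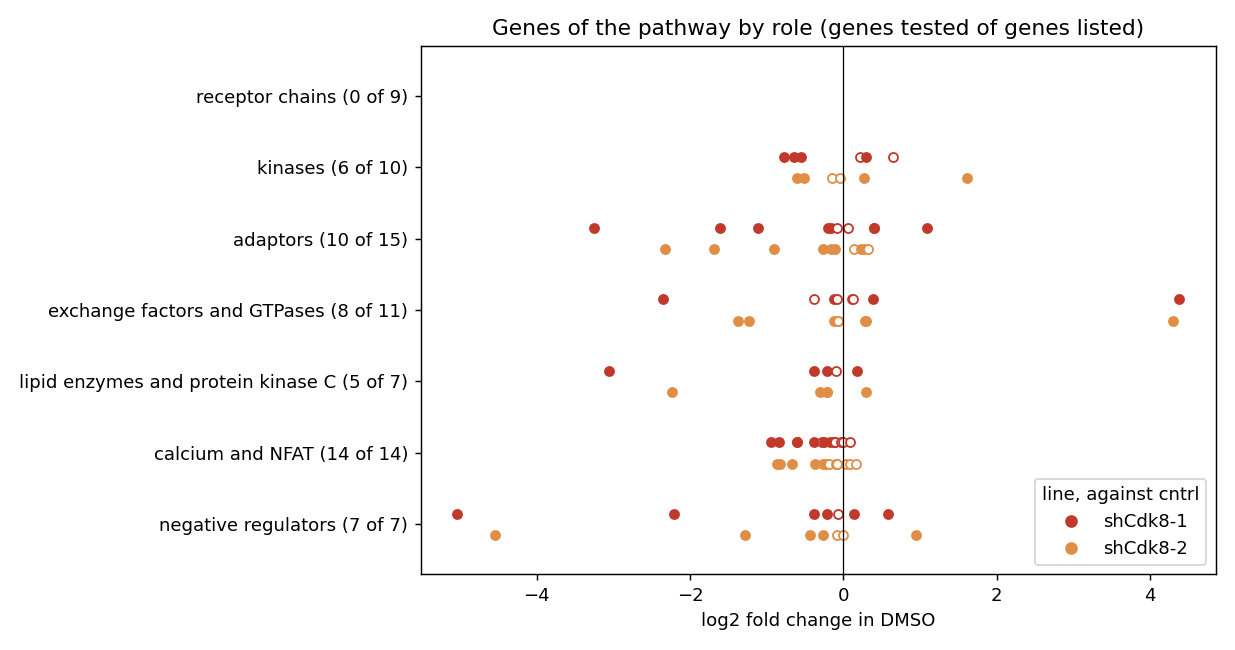
Log2 fold change in DMSO of pathway genes by role, in shCdk8-1 (upper row of each role) and shCdk8-2 (lower row) against the same 3 cntrl libraries. Filled points passed an adjusted p under 0.05, and the labels give genes tested of genes listed, among those reported here. The 14 calcium and NFAT genes, without Nfatc2, hold no riser that passed, and Rasgrp2 is the point above 4 on the right among the exchange factors and GTPases.

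With SnxB in cntrl cells 2 of the 53 genes passed in edgeR, where 5.54% of all genes did. Cblb, a ubiquitin ligase that restrains receptor signals, rose (log2 fold change 0.23, adjusted p = 0.0411, edgeR), and Sla2 fell. With DESeq2 3 passed, Cblb, Grap2 and Ppp3ca. In shCdk8-1 cells 0 passed in edgeR and 0 in DESeq2, beside 1.48% of all genes, with 6 and 5 at an unadjusted p under 0.05. In shCdk8-2 cells 1 of the 53 passed in edgeR, beside 2.05% of all genes, and 2 in DESeq2, Tec and Ppp3ca. Tec, a kinase of the family of Btk, fell there (-0.32, adjusted p = 0.0147, edgeR). Over the alternatives the adjusted p ranged from 0.00105 to 0.183 for Cblb and from 0.00718 to 0.0905 for Tec. Cblb, Grap2, Ppp3ca and Tec were named after their values were seen.

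A list of 9 genes known to respond to NFAT was set beside Nfatc2. Of these 6 were tested, and in DMSO 2 rose and 2 fell in shCdk8-1, while 1 rose and 2 fell in shCdk8-2. Over all genes 30.1% rose and 29.5% fell in shCdk8-1, and 29.0% and 28.1% in shCdk8-2, so that the counts of these 6 genes are near the background. Ptgs2, which encodes cyclooxygenase-2, had 0 counts in all 6 cntrl libraries and 20 to 42 counts in the shCdk8 libraries in DMSO, at least 6.94-fold higher in shCdk8-1 and at least 9.16-fold higher in shCdk8-2, against a floor of 3 counts a library. Rcan1, an inhibitor of calcineurin, fell from 50.7 CPM in cntrl to 24.4 CPM in shCdk8-1 and 36.6 CPM in shCdk8-2 cells in DMSO (log2 fold change -1.06 and -0.47, adjusted p = 4.97e-10 and 2.36e-05, edgeR). Tnf fell as well (-2.38 and -1.29, adjusted p = 0.000234 and 0.00935, edgeR), from 0.642 CPM in cntrl. Ptgs2, Rcan1 and Tnf were named after their values were seen.

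Since the cascade belongs to blood cells, markers of these cells were examined in every library. Of 32 markers 4 were at 0 in all 18 libraries, which were Cd8a, Ncr1, Gzma and Hbb-bs, and 20 had at most 3 counts in every library. The defining markers of T cells (Cd3e), B cells (Ms4a1), macrophages (Adgre1, Itgam) and NK cells (Nkg7) reached at most 1 count in any library. Other markers were detected, with up to 108 counts of the lysozyme gene Lyz2, 60 of Cd68 and 11 of Csf1r, all of macrophages, and up to 5 of Cd79a of B cells. Of the 4 markers that were tested, 3 were lower and 0 higher in each shCdk8 line in DMSO, beside 29.5% of all genes lower in shCdk8-1 and 28.1% in shCdk8-2. Lyz2 fell from 4.45 ± 0.392 CPM in cntrl to 2.17 ± 0.206 in shCdk8-1 and 1.97 ± 0.484 CPM in shCdk8-2 cells in DMSO (log2 fold change -1.03 and -1.16, adjusted p = 0.000301 and 0.00011, edgeR); this gene was picked with its values known. The summed level of the 32 markers was 12.8 to 14.2 CPM in cntrl, 4.62 to 5.73 CPM in shCdk8-1 and 5.62 to 6.31 CPM in shCdk8-2 cells in DMSO. In SnxB it was 12 to 15.5, 3.87 to 4.93 and 5.32 to 5.98 CPM. The summed level was thus higher in cntrl cells, together with Vav1, Lcp2, Prkcb and Sla, and their part in these values was not tested.

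Coro1a, an actin regulator of leukocytes, was the one marker above 1 CPM on average that differed by more than 2-fold in all 4 comparisons, at 3.64 CPM in cntrl, 0.508 in shCdk8-1 and 0.478 in shCdk8-2 cells in DMSO (log2 fold change -2.86 and -2.88, adjusted p = 2.75e-08 and 2.71e-08, edgeR). Ptprc, the leukocyte antigen CD45, had 3 to 10 counts in the cntrl libraries and 0 to 1 in the shCdk8 libraries. Bulk RNA cannot tell fewer cells of a type from less RNA per cell. In cntrl cells in DMSO Vav1 was at 7.8 ± 0.267 CPM and Ptprc at 0.28 CPM, with Coro1a (3.64 CPM) and Lyz2 in between. These values are not scaled to gene length, and a part of blood cells in the level of Vav1 was not tested.

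**Figure D5:**
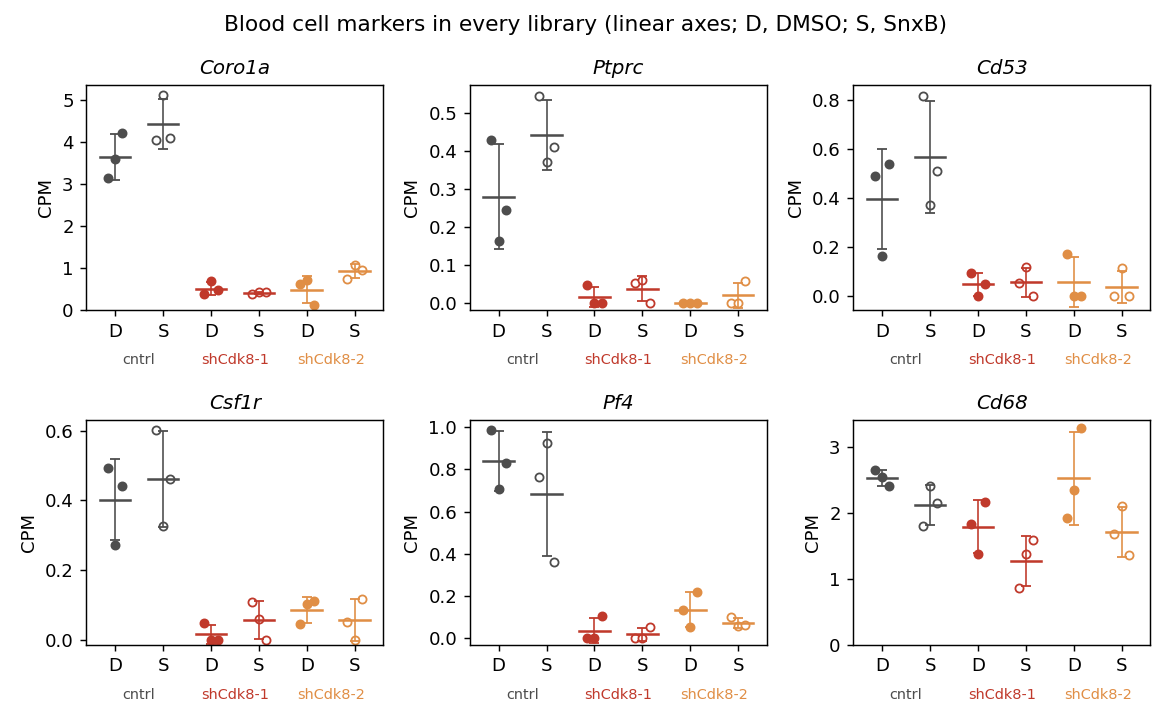
Levels of 6 blood cell markers in CPM (linear axes) in every library, as points with mean and SD (n = 3), filled for DMSO and open for SnxB. Coro1a, Ptprc, Csf1r and Pf4 lie higher in all cntrl libraries, at under 6 CPM for Coro1a and under 1 CPM for the other 3, while Cd68 and, in 1 shCdk8-2 library in DMSO, Cd53 overlap between cntrl and shCdk8-2 cells.

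The tumor cell label was checked with 10 markers. Vim, the mesenchymal filament, was at 3690.0 to 4430.0 CPM in the 6 groups, and the epithelial Krt18, Krt19, Krt7 and Epcam were at under 0.4 CPM in each. Cdh1, also epithelial, was higher in shCdk8-1 in DMSO (log2 fold change 2.12, SE 0.592, adjusted p = 0.00417, edgeR). In shCdk8-2 in DMSO it did not pass (0.74, SE 0.727, adjusted p = 0.404, edgeR). In SnxB it was higher in both lines (2.6 and 2.15, adjusted p = 0.000481 and 0.00453, edgeR). Krt8 had 0 to 1 counts in cntrl libraries and 137 to 153 in shCdk8-1 libraries in DMSO, a ratio of 138 (exact 95% counting interval 46.8 to 670). Esr1, the estrogen receptor whose absence helps to define triple-negative cells, was at 23.1 CPM in cntrl and 1.25 and 0.951 CPM in shCdk8-1 and shCdk8-2 cells in DMSO (log2 fold change -4.21 and -4.57, adjusted p = 1.69e-14 and 1.33e-14, edgeR). At the level of RNA the cntrl cells therefore go against the label at this marker, while Pgr was at 0 in every group. Erbb2, the HER2 gene, had log2 fold changes of -0.16 in shCdk8-1 and -0.23 in shCdk8-2 cells in DMSO (adjusted p = 0.0239 and 0.00249, edgeR). Receptor protein was not measured here, so the label itself was not tested. Krt8, Cdh1, Esr1 and Erbb2 were named after their values were seen.

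For each gene, those genes with the most similar level over the 18 libraries were searched among 11180 or 11181 genes that averaged 1 CPM or more. The libraries share 3 lines, so that any gene that separates cntrl from both shCdk8 lines scores high. Syk was most like Mgll (Pearson r = 0.997) and Ntn1 (0.996), the latter at 8.92 CPM in cntrl and 175.0 CPM in shCdk8-1 cells in DMSO. Vav1 was most like Rap2c (0.994) and Pros1 (0.994), Rac3 like Trap1 (0.991) and Islr (0.989), and Plcg2 like Pacs2 (0.985) and Pdxk (0.979). For Prkcb these were Cd300lb (0.968) and Sema5a (0.965), for Lcp2 Colgalt1 (0.967) and Wdr1 (0.965), and for Nfatc2 Usp7 (0.945) and Stom (0.942). Sla was most like Map4k3 (0.905) and Fbxl20 (0.897), and Shc4 like Rtkn (0.813) and Tmem198b (0.807), the lowest values of the 9. Among the genes themselves r over 18 libraries was 0.97 for Syk and Rac3, 0.93 for Vav1 and Prkcb, and -0.99 for Syk and Vav1, given as a description.

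The chromosomal neighborhood was examined with the 5 tested genes on either side of each gene. In shCdk8-1 against cntrl in DMSO the median log2 fold change of these 10 neighbors was 0.14 for Syk, 0.03 for Vav1, 0.02 for Lcp2, -0.01 for Prkcb, 0.06 for Rac3, 0.13 for Nfatc2 and -0.1 for Shc4. It was -0.35 for Sla and -0.44 for Plcg2, which itself was higher. The 9 genes lie on 7 chromosomes, and the medians of the neighbors were all under 1 in size, while single neighbors ranged from -5.17 near Sla to 6.92 near Syk.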

How the data were processed

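RNA-seq of 18 libraries (3 E0771 lines, each in DMSO or SnxB, n = 3) was used. The authors trimmed 50 bp single-end reads with Trimmomatic 0.36, mapped them with STAR 2.5.2b to GRCm38 and GENCODE M13, and counted them per gene with featureCounts 1.5.1, with strand set to 2 (reverse). The deposited values are raw read counts. Reads shared by genes or by several places were left out by the counter's defaults, which lowers values for overlapping exons. CPM values used TMM-scaled library sizes.

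Counts were fitted for all 18 libraries with edgeR 4.0.16 in R 4.3.3 (filterByExpr at 10 counts and a total of 15, TMM, glmQLFit and glmQLFTest). P-values were adjusted by Benjamini-Hochberg over 12772 genes. Standard errors came from the F statistic. A gene passed at an adjusted p under 0.05, and 2-fold calls are named as such. Scripts were tested on simulated data. Ratios to groups with at most 3 counts per library used exact binomial intervals on summed counts, and the 95% intervals and floors cover counting error only.

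The genes and the lists set beside them were chosen with earlier results of these data known. Named were the 9 genes, their relatives, Cdk8, up to 6 genes of a list called the same way in all 4 comparisons with cntrl at a mean of at least 1 CPM, the 2 genes most like each in log2 CPM (prior count 2), and exceptions stated in the text. Sequences are from RefSeq on GRCm38.p6.

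For shCdk8-2 the headers of the count files give replicate 2, 3 and 3, where the sample labels, used here, give 1, 2 and 3. The labels do not say whether replicates are separate cultures, so that p-values measure the spread between these libraries, which may be technical. The lowest correlation of log2 CPM within a group was 0.994, and no pair of libraries was identical. Alternatives were DESeq2 1.42.0, other scalings, filters, tests and fits, the replicate number as a block, and leaving out each library. Some genes of the lists are not reported here.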

Additional observations from a re-analysis of the deposited data

How the results depend on the processing

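The 2 genes that passed with SnxB in cntrl cells, Lcp2 and Sla, passed under every alternative fit and without any single library (log2 fold change 0.58 to 0.83 for Lcp2 and 1.25 to 1.38 for Sla), and with a fold above 2 required as well the count was 1, Sla. Over the fits without 1 library the count was 2 to 3, the third gene being Rac3. In shCdk8-1 cells the count of 0 became 1, Lcp2, with the likelihood ratio test and with no filter, and ranged from 0 to 1 without 1 library. The cause was not tested. No gene passed with SnxB in shCdk8-2 cells or for the 2 differences between lines under any alternative. The pathway counts, 37 and 38 of 53, ranged from 33 to 41 over all alternatives and libraries left out, and were 39 and 40 in SnxB. No result reversed. Among the values of single genes 1952 kept their side of the threshold or moved by less than 1 SD, 4 newly passed, and 35 differences between lines moved by more than 1 SD without a change of sign. In no comparison were all 3 correlations of deviations between libraries of the same replicate number above 0.1 (-0.16 to 0.247 in all). The highest were 0.247, 0.0582 and 0.131 for shCdk8-2 against cntrl in SnxB. This check cannot exclude pairing, since the replicate numbers of shCdk8-2 differ between labels and headers. With the replicate block 2 genes passed with SnxB in cntrl cells and 0 in the shCdk8 lines. Levels under 0.182 CPM cannot be told from 0 here, which limits Syk in cntrl, Prkcb and Vav1 in the shCdk8 lines, and Sla in single shCdk8-1 libraries. The log2 fold change of Syk in shCdk8-1 against cntrl in DMSO, 8.11, ranged from 6.4 to 8.13 over the alternative fits.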
